A study of Homo sapiens with 21 samples.

Results

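A set of 9 genes was examined across all 21 RNA-sequencing libraries of the series: KLHDC7B, BMS1P4-AGAP5, SYTL1, CLGN, GPX8, GEM, P2RX7, CDH15 and APOL6. They were taken by symbol and Ensembl identifier, 9 of the 60671 genes in the deposited table. They had been chosen by their low DMSO counts and higher tunicamycin counts in these same libraries, so every tunicamycin value of these genes is a description and carries no test. The working name of the set, near-silent genes switched on by tunicamycin, held for part of it only, as set out below. OCI-AML3, an established human acute myeloid leukaemia line, was left untreated at 0 h or was given DMSO or tunicamycin at 1 μg/mL for 4 h or 24 h. HEK293T, an established human embryonic kidney line, was given DMSO or the same dose for 24 h. Each of these 7 groups had 3 libraries of poly(A) RNA. No engineered allele was named for either line in the labels, each is a single line, and nothing in the labels states that replicates came from separate cultures, so p-values measure the spread between these libraries, which may be technical.

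Tunicamycin blocks the first committed step of N-linked glycosylation, so that glycoproteins fail to fold in the endoplasmic reticulum (ER). Unfolded proteins release the sensors PERK, IRE1 and ATF6, which together raise chaperones, redox enzymes and degradation factors and hold back translation; ATF4 and CHOP carry the transcriptional arm of PERK. The genes described here have different roles. CLGN and GPX8 encode ER proteins, SYTL1 encodes a partner of a small GTPase, and GEM encodes a small GTP-binding protein. P2RX7 and CDH15 encode surface proteins, APOL6 belongs to an interferon-responsive family, and BMS1P4-AGAP5 is a readthrough transcript annotated as a long non-coding RNA.

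Total expected counts ranged from 13838466 to 19961798 per library, with a median of 16657737. Levels are given as CPM, counts scaled to a common library size with TMM, on which a count of 3 averaged 0.151 to 0.215 CPM across the groups. In bulk RNA, a few cells with many transcripts and many cells with few cannot be told apart. Of 8 leukocyte markers, 7 lay at 54.0 CPM or more in every OCI-AML3 library and at 0.269 CPM or less in every HEK293T library. PTPRC, the pan-leukocyte antigen, lay between 230 and 467 CPM in OCI-AML3 and was at 0 in HEK293T, while KRT18, an epithelial keratin, lay between 43.6 and 53.2 CPM in HEK293T and reached 2.31 CPM in OCI-AML3. MPO stayed at 0.98 to 1.66 CPM in OCI-AML3, and LHX1 did not separate the lines, with 1.23 to 3.12 CPM in OCI-AML3 and 0.909 to 2.10 CPM in HEK293T. HSPA5, the ER chaperone BiP, lay between 419 and 734 CPM in untreated and DMSO libraries of both lines and between 3044 and 7056 CPM in tunicamycin libraries.

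RefSeq promoter sequence (GRCh38.p14) was at hand for 5 of the 9 genes, namely KLHDC7B, SYTL1, CLGN, GPX8 and P2RX7. The 250 bases before each RefSeq start were searched on both strands for 7 elements tied to ER stress, cyclic AMP, AP-1 or interferon. The elements were ERSE (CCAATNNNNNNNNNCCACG), ERSE-II (ATTGGNCCACG), UPRE (TGACGTGG), CARE (TGATGNAA, the element bound by ATF4 with C/EBP partners), CRE (TGACGTCA), AP-1 (TGANTCA) and ISRE (GAAANNGAAA). CARE letters occurred in 3 of the 5 promoters and in 3.14% of all 35116 promoters searched, and the other 6 elements occurred in none of the 5. Their shares over all promoters were 0.074% for ERSE, 0.0513% for ERSE-II, 0.612% for UPRE, 1.65% for CRE, 6.57% for AP-1 and 3.02% for ISRE. With 7 elements tried on 5 genes picked for their tunicamycin counts, nothing is read from the difference between these shares. The 3 promoters with a CARE match are shown, chosen for that match. They are written 5′ to 3′ on the strand of the gene with the match in capitals. All 3 matches read on the opposite strand, beginning 151 bases before the start in KLHDC7B (chr22:50545649-50545898, plus strand), 46 bases before it in SYTL1 (chr1:27341772-27342021, plus strand) and 189 bases before it in GPX8 (chr5:55159921-55160170, plus strand). A match of these letters is not evidence of binding, and a window without them says nothing of the factor.
KLHDC7B: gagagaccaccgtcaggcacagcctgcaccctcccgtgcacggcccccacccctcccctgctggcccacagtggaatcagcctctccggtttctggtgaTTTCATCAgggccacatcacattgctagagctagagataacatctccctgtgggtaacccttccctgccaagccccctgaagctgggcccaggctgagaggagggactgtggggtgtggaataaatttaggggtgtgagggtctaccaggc
SYTL1: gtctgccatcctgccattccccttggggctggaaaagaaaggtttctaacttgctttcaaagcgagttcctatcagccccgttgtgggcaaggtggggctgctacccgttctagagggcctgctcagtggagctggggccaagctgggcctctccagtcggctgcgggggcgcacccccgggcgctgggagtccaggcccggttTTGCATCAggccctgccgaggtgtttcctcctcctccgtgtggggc
GPX8: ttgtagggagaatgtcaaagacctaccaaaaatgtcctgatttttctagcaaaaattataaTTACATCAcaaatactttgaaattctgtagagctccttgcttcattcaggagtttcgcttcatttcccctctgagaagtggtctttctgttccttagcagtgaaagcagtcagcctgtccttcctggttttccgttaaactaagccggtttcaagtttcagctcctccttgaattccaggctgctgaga

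Across the set, tunicamycin counts stood above DMSO counts nearly throughout. With CPM, every tunicamycin library lay above every DMSO library for 9 of 9 genes in OCI-AML3 at 4 h, for 9 of 9 at 24 h and for 8 of 9 in HEK293T, the exception being BMS1P4-AGAP5. In HEK293T, P2RX7 had at most 3 counts in any library, and APOL6 was kept apart by library size alone, 1 count in a tunicamycin library standing at 0.0505 CPM against 1 count in a DMSO library at 0.0457 CPM. Over all 14012 genes that passed the filter of 1 CPM in 8 libraries, the same was true of 22.9%, 25% and 23.4% in those comparisons. The genes were picked for this direction, so nothing is read from the difference between these shares. All 9 passed the filter, with 8 to 15 libraries at 1 CPM. KLHDC7B passed through tunicamycin libraries alone, 9 of 9 of them and none of the other 12.

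**Figure D1:**
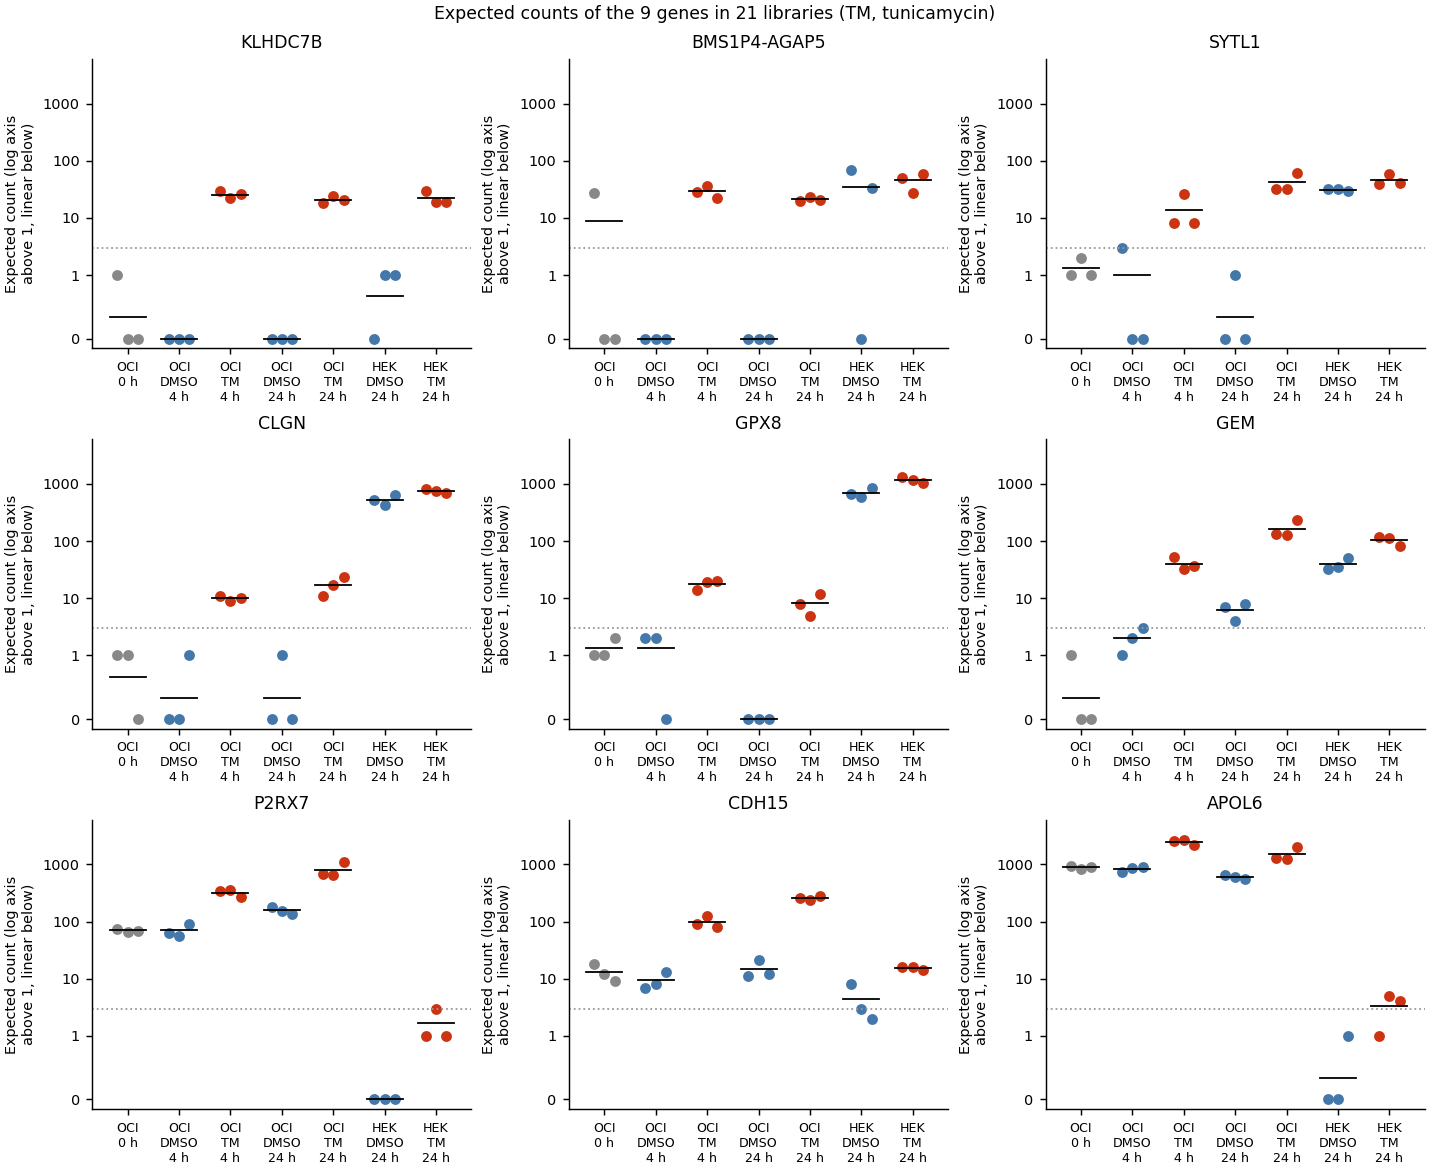
Expected count of each of the 9 genes in each of the 21 libraries, 3 points per group with the mean as a bar, on an axis that is logarithmic above 1 and linear below. The dotted line marks 3 counts. KLHDC7B sits at 0 or 1 in every library without tunicamycin and at 18 to 30 in all 9 with it, while P2RX7 and APOL6 lie well above the line in every OCI-AML3 library.

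Near-silent is used here for a gene with 3 counts or fewer in every DMSO library of a comparison. In OCI-AML3 at 4 h this held for 6 of the 9 genes, KLHDC7B, BMS1P4-AGAP5, SYTL1, CLGN, GPX8 and GEM. At 24 h it held for 5 of them, without GEM. In HEK293T it held for 3 genes, KLHDC7B, P2RX7 and APOL6. CDH15 met it in no comparison, and P2RX7 and APOL6 were plainly expressed in OCI-AML3 without tunicamycin. Just inside the limit were SYTL1 with 3, 0 and 0 counts and GEM with 1, 2 and 3 counts in DMSO at 4 h, and just outside it were GEM with 7, 4 and 8 counts in DMSO at 24 h and CDH15 with 8, 3 and 2 counts in HEK293T.

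KLHDC7B (ENSG00000130487, chr22:50545899-50551023, plus strand, a single exonic block of 5125 bases in GENCODE 44 on GRCh38) encodes a kelch-domain protein. It had 0 counts in all 6 OCI-AML3 DMSO libraries and 1, 0 and 0 counts in untreated cells. With tunicamycin it had 29, 22 and 26 counts at 4 h and 18, 24 and 21 counts at 24 h. In HEK293T it had 0, 1 and 1 counts in DMSO and 30, 19 and 19 counts in tunicamycin. No tunicamycin library came near a library without it, in either line. Mean levels were 1.68 ± 0.335 CPM at 4 h, 1.40 ± 0.342 CPM at 24 h and 1.28 ± 0.240 CPM in HEK293T (SD, n = 3), and these 3 tunicamycin groups overlapped one another. Against a limit of 3 counts in each DMSO library, the gene was at least 8.94-fold higher at 4 h and at least 6.49-fold higher at 24 h. In HEK293T the ratio of pooled counts, 68 over 2, was 38.5 with a 95% counting interval of 10.2 to 324, or 8.47 against 3 counts in every DMSO library. It was the only one of the 9 genes that went from near-silent to 1 CPM or more in all 3 comparisons.

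CLGN (ENSG00000153132, chr4:140388453-140427661, minus strand, 16 exonic blocks) encodes calmegin, a testis-enriched relative of the lectin chaperone calnexin, and its starting level differed by line. OCI-AML3 held 1, 1 and 0 counts untreated, 0, 0 and 1 in DMSO at 4 h and 0, 1 and 0 in DMSO at 24 h. Tunicamycin libraries held 11, 9 and 10 counts at 4 h and 11, 17 and 24 counts at 24 h. HEK293T held 516, 426 and 631 counts in DMSO and 812, 768 and 698 in tunicamycin. The gene was thus near-silent in OCI-AML3 alone, at 0.00787 CPM per kb in DMSO at 24 h against 9.23 CPM per kb in HEK293T DMSO, and in OCI-AML3 tunicamycin at 24 h it stood at 0.395 CPM per kb. The pooled ratio in OCI-AML3 was 31.1 (95% counting interval 5.17 to 1269) at 4 h and 47.4 (8.14 to 1907) at 24 h, each resting on a single DMSO count. Without the 4 h DMSO replicate 3 or the 24 h DMSO replicate 2, which held that count, the log2 ratios of 4.96 and 5.57 became bounds of at least 1.74 and 2.32. In HEK293T the ratio of mean CPM was 1.66, from 26.0 ± 3.04 to 43.2 ± 3.17 CPM.

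GPX8 (ENSG00000164294, chr5:55160167-55167297, plus strand) encodes an ER membrane member of the glutathione peroxidase family, and it followed the same division between lines. OCI-AML3 had 1, 1 and 2 counts untreated, 2, 2 and 0 in DMSO at 4 h and 0 in all 3 DMSO libraries at 24 h. Tunicamycin gave 14, 19 and 20 counts at 4 h and 8, 5 and 12 counts at 24 h. The 4 h tunicamycin libraries all stood above the 24 h ones, at 1.15 ± 0.281 against 0.529 ± 0.143 CPM, an order opposite to that of CLGN and GEM. At 4 h the pooled ratio was 13.7 (95% counting interval 5.06 to 52.3), and at 24 h the gene was at least 2.46-fold higher. Leaving out DMSO replicate 3 at 4 h lowered the log2 ratio from 3.78 to 3.13. HEK293T had 668, 589 and 840 counts in DMSO and 1310, 1189 and 1030 in tunicamycin, a ratio of mean CPM of 1.92. The gene lies wholly inside CDC20B on the opposite strand, and CDC20B had 0 to 4 counts in any library.

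SYTL1 (ENSG00000142765, chr1:27342020-27353937, plus strand) encodes a synaptotagmin-like protein that binds RAB27 on secretory vesicles. Its OCI-AML3 counts were 1, 2 and 1 untreated, 3, 0 and 0 in DMSO at 4 h and 0, 1 and 0 in DMSO at 24 h. Tunicamycin libraries had 8, 26 and 8 counts at 4 h and 32, 32 and 62 counts at 24 h. All 24 h tunicamycin libraries, at 2.67 ± 0.615 CPM, lay above all 4 h ones, at 0.873 ± 0.567 CPM, where replicate 2 alone exceeded 1 CPM. The 24 h level reached that of HEK293T, which had 32, 32 and 29 counts in DMSO and 39, 58 and 41 in tunicamycin, or 1.56 ± 0.206 and 2.63 ± 0.605 CPM. The pooled ratio was 14.5 (95% counting interval 4.64 to 73.2) at 4 h and 115 (20.2 to 4570) at 24 h, the latter against 1 DMSO count in all. Set against 3 counts in every DMSO library, these became 4.65 and 12.4. The 4 h log2 ratio of 3.86 was at least 2.26 without DMSO replicate 1, 3.21 without DMSO replicate 3 and 3.13 without tunicamycin replicate 2. The 24 h log2 ratio of 6.84 was at least 3.58 without DMSO replicate 2. In HEK293T the ratio of mean CPM was 1.68.

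GEM (ENSG00000164949, chromosome 8, minus strand) encodes an RGK-family GTP-binding protein that restrains voltage-gated calcium channels, and in OCI-AML3 it had the highest tunicamycin level per length of the 6 genes that were near-silent in DMSO at 4 h. OCI-AML3 held 1, 0 and 0 counts untreated and 1, 2 and 3 in DMSO at 4 h, followed by 7, 4 and 8 in DMSO at 24 h. Tunicamycin gave 52, 32 and 37 counts at 4 h and 136, 126 and 231 counts at 24 h. HEK293T held 33, 35 and 50 counts in DMSO and 116, 112 and 83 in tunicamycin. In CPM the higher groups stood in the order OCI-AML3 DMSO at 24 h (0.462 ± 0.178), HEK293T DMSO (1.95 ± 0.304), OCI-AML3 tunicamycin at 4 h (2.63 ± 0.725), HEK293T tunicamycin (5.84 ± 0.264) and OCI-AML3 tunicamycin at 24 h (10.5 ± 1.79). Of these neighbours, the libraries of HEK293T DMSO and OCI-AML3 tunicamycin at 4 h alone overlapped. The pooled ratio at 4 h was 20.9 (95% counting interval 9.33 to 58.1), and ratios of mean CPM were 22.8 at 24 h and 3.00 in HEK293T.

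**Figure D2:**
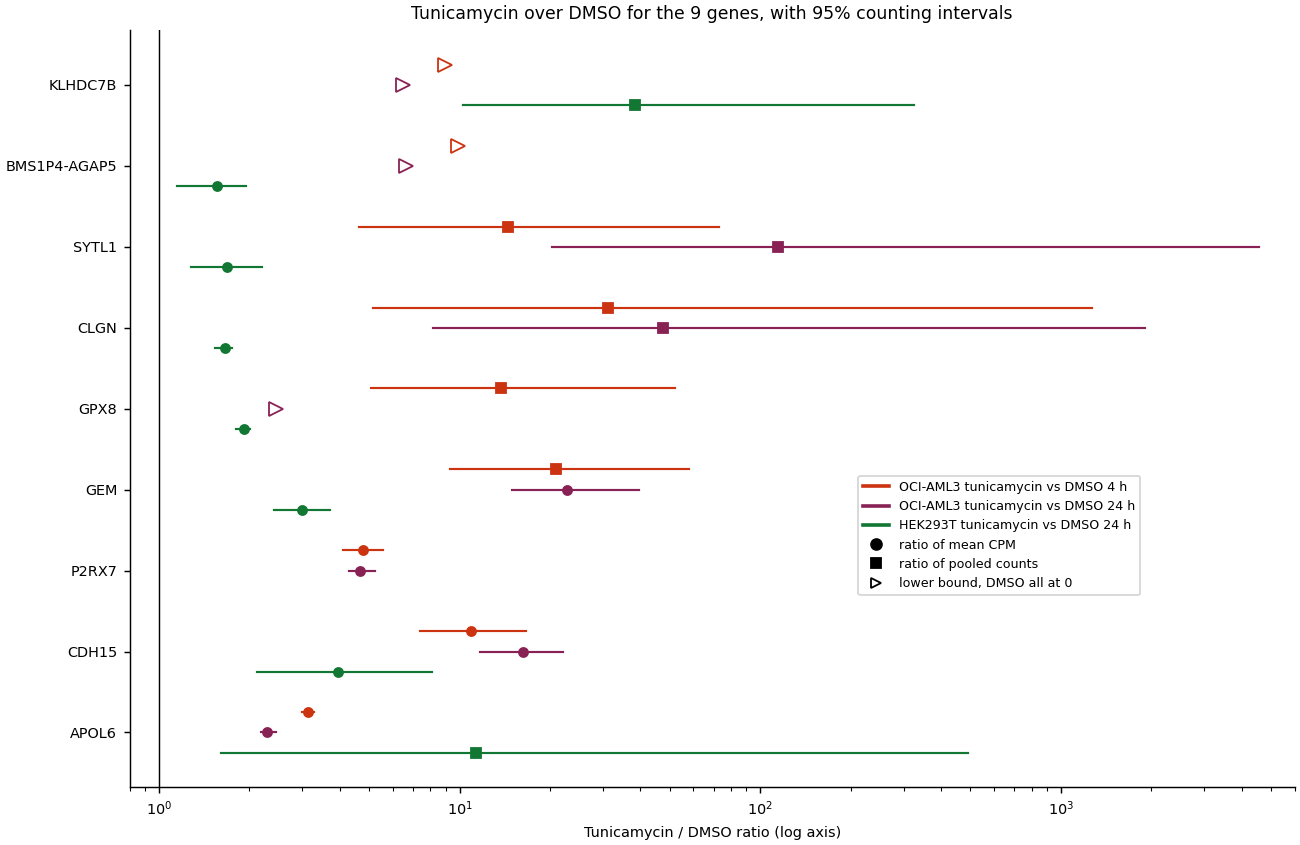
Ratio of tunicamycin to DMSO for each of the 9 genes in the 3 comparisons, on a log axis. Circles are ratios of mean CPM, squares ratios of pooled counts where every DMSO library had 3 counts or fewer, open triangles lower bounds where all DMSO libraries were at 0, and bars 95% counting intervals. For BMS1P4-AGAP5, whose zeros are estimates, the triangles are no bounds. The SYTL1 interval at 24 h spans 20.2 to 4570 because 1 DMSO count lies under it, while APOL6 in OCI-AML3 is placed at 3.13 and 2.28.

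P2RX7 (ENSG00000089041, chr12:121132819-121188032, plus strand) encodes an ATP-gated cation channel that acts upstream of the NLRP3 inflammasome in myeloid cells. It was not near-silent in OCI-AML3, with 75, 66 and 69 counts untreated, 62, 56 and 92 in DMSO at 4 h and 182, 151 and 135 in DMSO at 24 h. Tunicamycin libraries held 338, 352 and 273 counts at 4 h and 682, 640 and 1110 counts at 24 h. In CPM the groups stood in the order untreated and 4 h DMSO (4.14 ± 0.195 and 4.32 ± 0.859, overlapping), 24 h DMSO (11.2 ± 1.64), 4 h tunicamycin (20.7 ± 0.896) and 24 h tunicamycin (52.0 ± 7.29). The ratio of mean CPM was 4.79 at 4 h and 4.66 at 24 h. HEK293T had 0 counts in all 3 DMSO libraries and 1, 3 and 1 counts in tunicamycin. Both groups were within the limit of 3 counts, so the level there was too low at this depth for a ratio to be given.

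CDH15 (ENSG00000129910, chr16:89171748-89195492, plus strand) encodes M-cadherin, the adhesion molecule of skeletal muscle precursors. OCI-AML3 held 18, 12 and 9 counts untreated, 7, 8 and 13 in DMSO at 4 h and 11, 21 and 12 in DMSO at 24 h. Tunicamycin libraries held 91, 123 and 80 counts at 4 h and 255, 235 and 276 counts at 24 h. HEK293T held 8, 3 and 2 counts in DMSO and 16, 16 and 14 in tunicamycin, all 3 above the DMSO libraries. Ratios of mean CPM were 10.95 at 4 h, 16.2 at 24 h and 3.95 in HEK293T, and in HEK293T the log2 ratio of 1.98 became 2.81 without DMSO replicate 1. At 24 h in OCI-AML3 its tunicamycin level, 3.62 CPM per kb, was close to the 3.97 CPM per kb of GEM.

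APOL6 (ENSG00000221963, chr22:35648446-35668404, plus strand) belongs to the apolipoprotein L family, whose members respond to interferon. It was the most abundant of the 9 per length in OCI-AML3, with 952, 813 and 904 counts untreated, 721, 854 and 887 in DMSO at 4 h and 662, 590 and 545 in DMSO at 24 h. Tunicamycin libraries held 2523, 2697 and 2202 counts at 4 h and 1300, 1220 and 2049 counts at 24 h. Its 4 h tunicamycin level of 160 ± 1.54 CPM exceeded the 24 h level of 97.9 ± 11.8 CPM in every library. Ratios of mean CPM were 3.13 and 2.28, the smallest of the 9 in OCI-AML3 where a ratio rather than a bound could be given. HEK293T held 0, 0 and 1 counts in DMSO and 1, 5 and 4 counts in tunicamycin, a pooled ratio of 11.3 (95% counting interval 1.61 to 491) but only 1.31 against 3 counts in every DMSO library. Without DMSO replicate 3 the log2 ratio of 3.50 became a bound of at least 0.33.

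BMS1P4-AGAP5 (ENSG00000242288, chr10:73674295-73730466, minus strand, 19 exonic blocks) joins the BMS1P4 pseudogene to AGAP5, and its counts need a separate reading because reads shared with the overlapping genes are split by estimation. It was the only one of the 9 with counts that were not whole, in 12 of 21 libraries. It had 26.9, 0 and 0 expected counts untreated and 0 in all 6 OCI-AML3 DMSO libraries, then 28.8, 35.8 and 22.5 in tunicamycin at 4 h and 20.2, 23.7 and 20.4 at 24 h. HEK293T held 70.2, 0 and 33.3 in DMSO and 50.3, 27.0 and 58.9 in tunicamycin, so the groups overlapped there. Against a limit of 3 counts in each DMSO library, the row alone was 9.88-fold higher at 4 h and 6.63-fold higher at 24 h. These values are no bounds, since estimated zeros stood beside 26.9 counts in untreated cells and beside 70.2 and 33.3 in HEK293T DMSO. In HEK293T the log2 ratio of mean CPM was 0.64, or 1.81 without DMSO replicate 1. Without DMSO replicate 2, which held 0 counts, the HEK293T DMSO libraries stood at 3.59 and 1.51 CPM, against 1.47 to 3.96 CPM in tunicamycin. Single libraries without tunicamycin thus ranged from 0 to 70.2, and 1 untreated library held as many counts as the tunicamycin ones.

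Summing the row with the 4 same-strand rows that overlap it (AGAP5, both BMS1P4 entries and ENSG00000272140), a choice made after the values were seen, gave a different picture. The locus held 146 to 214 expected counts in DMSO and 206 to 271 in tunicamycin at 4 h. In mean CPM it stood at 11.4 ± 1.48 against 14.9 ± 1.10 at 4 h, 8.01 ± 0.372 against 15.3 ± 3.72 at 24 h and 14.7 ± 0.623 against 14.9 ± 0.909 in HEK293T. The log2 ratios of the locus were 0.38, 0.94 and 0.02. In OCI-AML3 they were far below the 3.30 and 2.73 of the row alone against a limit of 3 counts. The row took 5.72% to 13.4% of the locus in OCI-AML3 tunicamycin libraries, 0% in OCI-AML3 DMSO libraries and 0% to 24.0% in HEK293T DMSO libraries. It took 17.8%, 0% and 0% in the untreated OCI-AML3 libraries and 9.83% to 28.3% in HEK293T tunicamycin libraries. AGAP5 itself had adjusted p = 0.737 at 4 h and 0.00680 at 24 h with log2 fold changes of 0.11 and 0.77, below the log2 limit of 1 used for a call (edgeR quasi-likelihood test, Benjamini-Hochberg over 14012 genes).

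**Figure D3:**
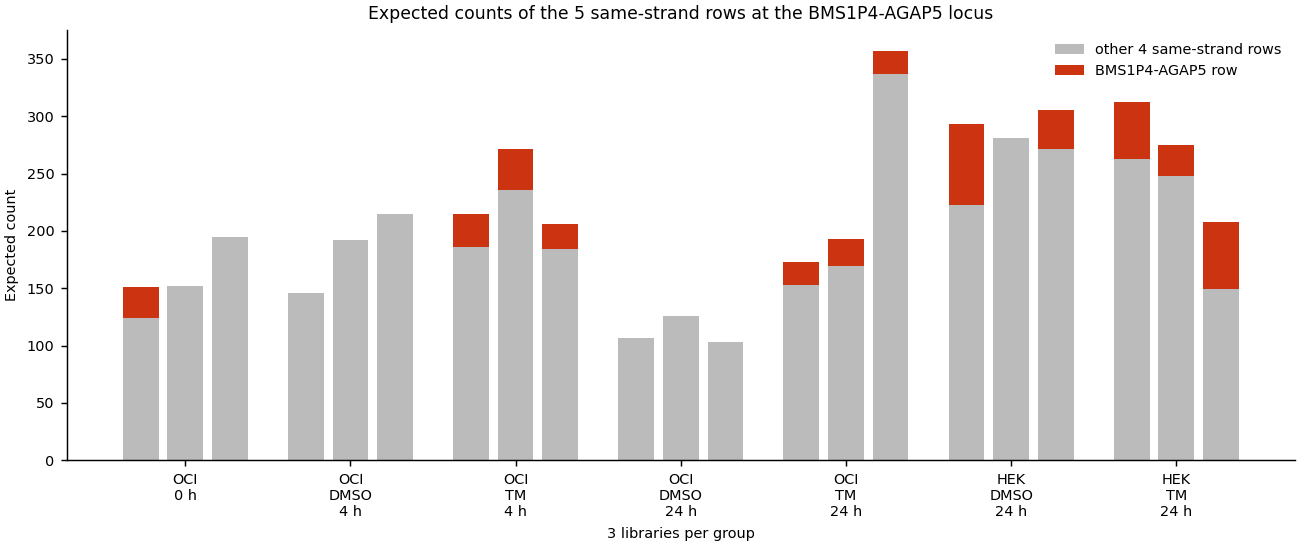
Expected counts per library of the 5 same-strand rows at the BMS1P4-AGAP5 locus, stacked, with the BMS1P4-AGAP5 row in red and the other 4 in grey. The red share is 0 in every OCI-AML3 DMSO library although the grey counts there run from 103 to 214.

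Differences between groups without tunicamycin are also given as a description for these genes, since low DMSO counts in the same libraries were part of how they were chosen. From DMSO at 4 h to DMSO at 24 h, P2RX7 differed by 1.36 ± 0.155 (fitted log2 fold change, SE), with all 3 libraries at 24 h above all 3 at 4 h. GEM, which was near-silent at 4 h, differed by 1.81 ± 0.576, from 1, 2 and 3 counts to 7, 4 and 8. CDH15 had 0.84 ± 0.358 and APOL6 -0.25 ± 0.097. KLHDC7B, BMS1P4-AGAP5, SYTL1, CLGN and GPX8 had 3 counts or fewer in all 6 of these libraries and are given no fold. Over all 14012 genes, 3.48% were called higher and 0.664% lower from 4 h to 24 h in DMSO, a gene being called at an adjusted p of at most 0.05 with a log2 fold change above 1 or below -1. Between untreated cells and DMSO at 4 h, 0% of genes were called by edgeR, which had 1160 at an unadjusted p under 0.05, and limma voom and DESeq2 also called 0. With no filter beyond 1 count, more genes were called in both of these comparisons, as given below under the processing. From untreated cells to DMSO at 4 h, P2RX7 had 0.07 ± 0.172, CDH15 -0.40 ± 0.367 and APOL6 -0.04 ± 0.095. BMS1P4-AGAP5 had a fitted -6.15 ± 2.80, which rests on the 26.9 expected counts of 1 untreated library against 0 in DMSO and is no bound. GEM, with 1, 0 and 0 counts untreated and 1, 2 and 3 in DMSO, and the other 4 genes had 3 counts or fewer in all 6 libraries and are given no fold.

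Over the whole table, a passage from near-silent to on was rare. On was defined as a mean of 1 CPM or more in tunicamycin with every tunicamycin library above every DMSO library. At 4 h in OCI-AML3, 42842 genes were near-silent in DMSO and 21 of them, 0.049%, were on in tunicamycin. At 24 h the numbers were 43113, 22 and 0.051%, and in HEK293T they were 40888, 4 and 0.00978%. The set held 4 of the 21 (KLHDC7B, BMS1P4-AGAP5, GPX8 and GEM), 4 of the 22 (KLHDC7B, BMS1P4-AGAP5, SYTL1 and CLGN) and 1 of the 4 (KLHDC7B). GEM ranked 5 of 21 by tunicamycin CPM at 4 h, where INHBE, the inhibin beta E subunit gene, led with 6.26 CPM, and SYTL1 ranked 3 of 22 at 24 h. Both OCI-AML3 times shared 5 such genes, 23.8% of the 4 h list and 22.7% of the 24 h list, namely KLHDC7B, BMS1P4-AGAP5, INHBE, ARAP2 and DNAJC6. The other 3 in HEK293T were FUT1, IFNAR2-IL10RB and IGFN1. IFNAR2-IL10RB held expected counts that were not whole, 1.42, 2.95 and 1.95 in DMSO and 11.14, 76.34 and 19.94 in tunicamycin. Its place in this class, like that of BMS1P4-AGAP5, rests on counts split by estimation. Genes outside the set are named here after their values were seen.

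Only 9 of the 21 genes at 4 h, 9 of the 22 at 24 h and 1 of the 4 in HEK293T passed the filter of 1 CPM in 8 libraries. INHBE, FUT1 and IGFN1 did not pass it, so the count of tested genes leaves out much of this class. At these limits, KLHDC7B was the only gene of the table that was near-silent in DMSO and on in tunicamycin in all 3 comparisons. With DMSO at 0 counts this no longer held in HEK293T, where KLHDC7B had 0, 1 and 1 counts. With on at 2 CPM it held in no comparison, the gene standing at 1.68, 1.40 and 1.28 CPM.

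**Figure D4:**
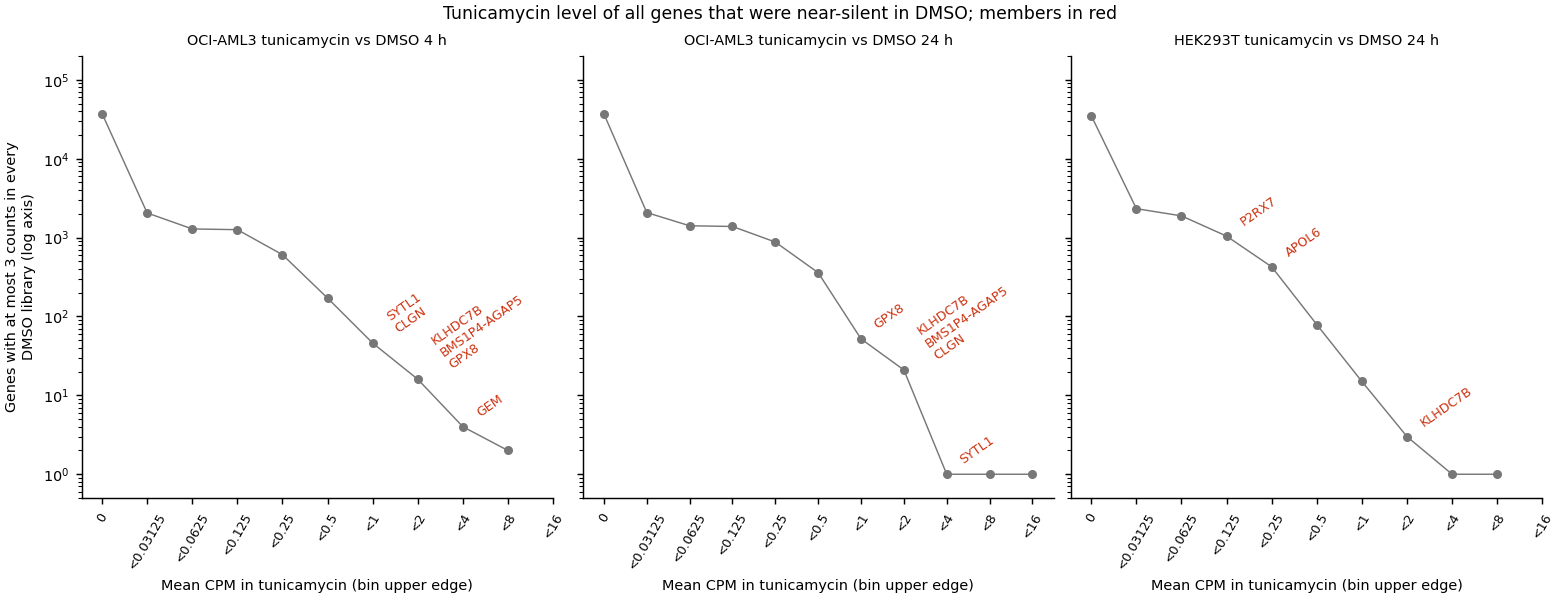
Number of genes, on a log axis, that had 3 counts or fewer in every DMSO library, binned by mean CPM in tunicamycin, for each comparison. Members of the set that were near-silent there are named in red beside their bin, and most near-silent genes, such as 37395 at 4 h in OCI-AML3, had no count in tunicamycin either.

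Relatives of the members by family or pathway were read from 12 lists, 57 genes of which were tested, and most were not called. Called higher were 1, 3 and 4 of the 57 in OCI-AML3 at 4 h, at 24 h and in HEK293T, or 1.75%, 5.26% and 7.02%, against 3.45%, 4.05% and 1.58% of all genes. Called lower were 0, 5 and 1, against 1.47%, 2.26% and 0.55% of all genes. The median log2 fold change of the 57 was 0.06, 0.0014 and -0.09, against -0.02, -0.0084 and -0.0061 over all genes.

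Of the lectin chaperones around CLGN, 3 of 3 tested rose at 24 h and in HEK293T. CALR, the soluble ER lectin calreticulin, rose in all 3 comparisons, with log2 fold changes of 1.27 ± 0.071 at 4 h, 2.57 ± 0.074 at 24 h and 1.62 ± 0.072 in HEK293T (SE, adjusted p = 2.02e-12, 1.10e-17 and 4.61e-14, edgeR). CANX, the membrane-bound calnexin, and PDIA3, the disulfide isomerase that works with both, rose at 24 h by 1.64 and 2.37 and in HEK293T by 1.39 and 1.39. At 4 h they had 0.81 and 0.95, below the fold limit. These 3 genes were already abundant in DMSO, at 429 to 826 CPM in OCI-AML3 at 24 h, where CLGN held 1 count in 3 libraries. CALR3 and PDILT, relatives enriched in testis, did not pass the filter.

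Among glutathione peroxidases, 0 of 3 tested relatives of GPX8 were called in any comparison. GPX7, the other ER member, had -0.13 at 4 h and -0.08 at 24 h in OCI-AML3, and GPX1, the most abundant, had -0.58 at 24 h (adjusted p = 0.000489). No RGK relative of GEM (RRAD, REM1, REM2) passed the filter, and REM2 had the most with 1.03 CPM in HEK293T DMSO. Of the 3 tested in the RAB27 list of SYTL1, none was called, and RAB27A had 0.61 ± 0.093 at 24 h (adjusted p = 1.22e-05). UNC13D, the most abundant there, had -0.40 at 24 h.

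P2X relatives of P2RX7 lay below the fold limit in OCI-AML3, although P2RX4 passed it without DMSO replicate 1 at 4 h (1.03) or tunicamycin replicate 3 at 24 h (1.05), and P2RX5 without replicate 1 of either 24 h group (1.01 and 1.03). P2RX4, widely expressed in macrophages, had 0.87 ± 0.121 at 4 h (adjusted p = 4.94e-06) and 0.93 ± 0.115 at 24 h (adjusted p = 6.99e-07), and P2RX1 and P2RX5 had 0.80 and 0.88 at 24 h. In HEK293T, P2RX1 rose by 2.22 ± 0.699 (adjusted p = 0.0225) from 0.0762 to 0.409 CPM, with 5 to 9 counts per library in tunicamycin and 0 to 5 in DMSO, so that the raw counts of the groups met. The P2RX1 call was lost without DMSO replicate 1 (adjusted p = 0.0881) or 2 (adjusted p = 0.0848) or tunicamycin replicate 1 (adjusted p = 0.0633) or 2 (adjusted p = 0.0545), and DMSO replicate 3 held all of the DMSO counts. Without it the fitted log2 fold change of 5.80 is set against 0 counts and is no bound. The 8 NLRP3 inflammasome genes gave 0 calls in OCI-AML3 at either time, and 0 in HEK293T, where 6 of them (NLRP3, PYCARD, CASP1, IL1B, IL18 and GSDMD) had 3 counts or fewer in every library. Below the fold limit at 24 h in OCI-AML3, PYCARD, the adaptor, had -0.79 ± 0.137 (adjusted p = 5.22e-05), PANX1, an ATP release channel, 0.68 ± 0.083 (adjusted p = 7.00e-07) and NEK7, which binds NLRP3, 0.66 ± 0.137 (adjusted p = 0.000387), while NLRP3, the sensor, had 0.14 ± 0.070 (adjusted p = 0.0944).

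Classical cadherins and catenins beside CDH15 gave 0 calls of 6 tested. CDH1, the E-cadherin gene, did not pass the filter, had 83 to 102 counts in DMSO and 15 to 40 in tunicamycin in HEK293T, and was called lower with a filter of 1 CPM in 3 libraries (log2 -1.67, adjusted p = 0.00147). CTNNB1, the beta-catenin gene and the most abundant of the list in HEK293T, had -0.45 ± 0.053 there (adjusted p = 9.52e-07). Of 10 skeletal muscle genes, 1 passed the filter and none was called. Apolipoprotein L relatives of APOL6 went the other way at 4 h, APOL1 at -0.78 ± 0.218 (adjusted p = 0.00765) and APOL2 at -0.40 ± 0.094 (adjusted p = 0.00165), neither past the fold limit, which APOL1 passed without tunicamycin replicate 2 (-1.03). Of 13 interferon-inducible genes tested, 0 were called at 4 h, where IRF7 and IRF9, which encode transcription factors of the response, had 0.85 ± 0.115 and 0.68 ± 0.116 (adjusted p = 3.43e-06 and 6.41e-05), below the fold limit, while 5 fell at 24 h, with log2 fold changes of -1.59 for ISG15, -1.52 for IFI44L, -1.42 for IFIT1, -1.40 for MX1 and -1.10 for IFI6. GBP2, which encodes an interferon-inducible GTPase and did not pass the filter of 8 libraries, went the other way at 24 h, from 0.644 ± 0.063 to 3.24 ± 0.751 CPM (8 to 10 against 34 to 74 counts), and was called with a filter of 1 CPM in 3 libraries (log2 2.37, adjusted p = 0.000291). IFI6 was no longer past the fold limit without DMSO replicate 2 (-0.95) or tunicamycin replicate 3 (-0.92). IFIT1 also fell in HEK293T, with -1.61 ± 0.266 (adjusted p = 8.59e-05), where ISG15 had 0.86 ± 0.223 (adjusted p = 0.00637), below the fold limit. IFI6 had -0.84 ± 0.270 in HEK293T (adjusted p = 0.0240), also below the fold limit. It was called lower there without tunicamycin replicate 1 (-1.05, adjusted p = 0.0203). The kelch-domain relatives of KLHDC7B gave 0 calls of 6 tested, although KLHDC1 was called at 24 h without DMSO replicate 1 (log2 1.08, adjusted p = 0.0337), and KLHDC7A, its closest namesake, had a mean of at most 0.0239 CPM. The AGAP and BMS1 list gave 0 calls of 8 tested, although the BMS1P4 row ENSG00000271816 was called at 24 h without DMSO replicate 2 (log2 1.12, adjusted p = 0.0395) or tunicamycin replicate 1 (log2 1.07, adjusted p = 0.0247), with AGAP3, the most abundant AGAP, at -0.58 ± 0.086 at 4 h.

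**Figure D5:**
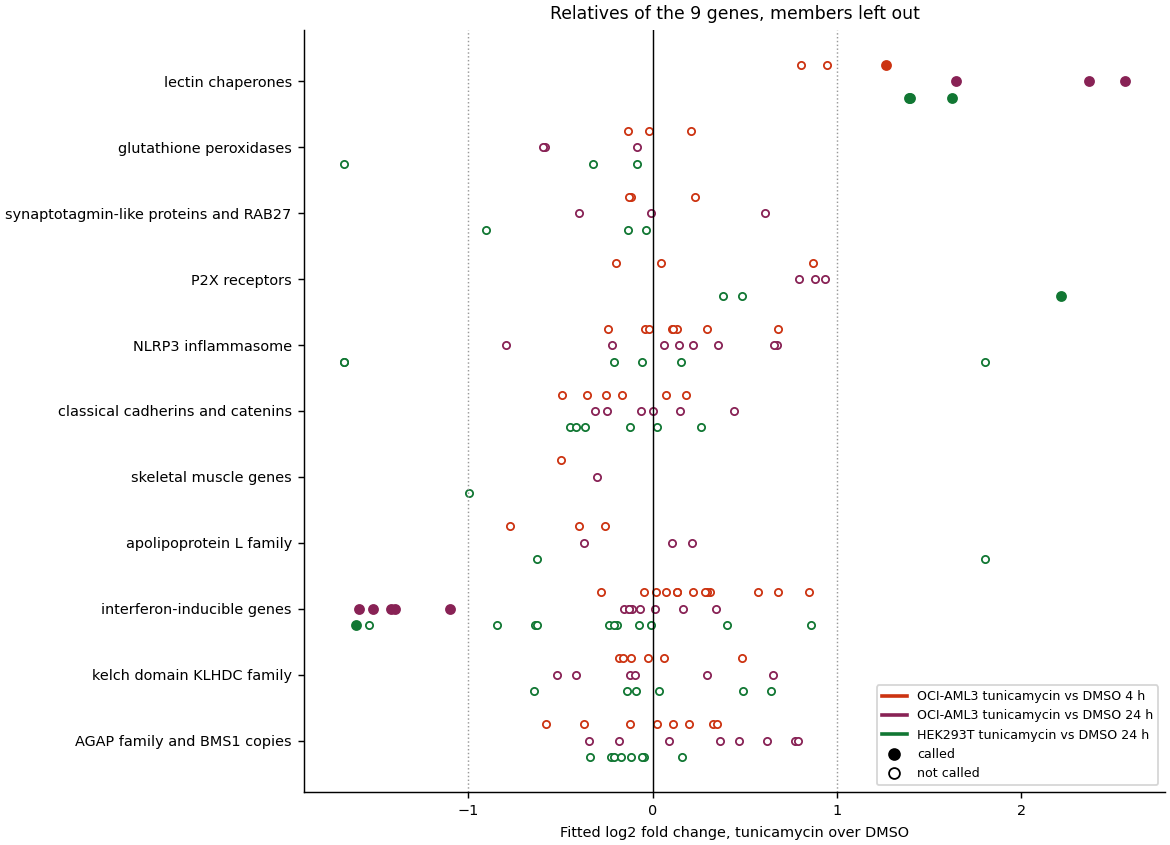
Fitted log2 fold change of each tested relative in the 3 comparisons, by list, with the 9 genes themselves left out. Filled points were called and dotted lines mark a log2 fold change of 1 and -1. Filled points gather in the lectin chaperones on the right and in the interferon-inducible genes on the left, with P2RX1 in HEK293T as the other one.

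Genes next to the members were read in the same fits. SLC22A31, which encodes an orphan solute carrier and ends 268 bases from CDH15 on the opposite strand, rose by 2.90 ± 0.153 at 24 h (adjusted p = 7.92e-13) and by 3.52 ± 0.236 in HEK293T (adjusted p = 8.69e-11). At 4 h it had 0.60 ± 0.153 (adjusted p = 0.00337). ENSG00000286248, a long non-coding RNA on the strand opposite P2RX7 that overlaps it by 10114 bases, rose by 2.43 ± 0.247 at 4 h and 2.06 ± 0.203 at 24 h (adjusted p = 5.17e-08 and 2.77e-08). Strand use in the counting was not stated. Both rows held whole counts in all 21 libraries, and the strand of the reads was not tested. MAP3K6, next to SYTL1 on the opposite strand, fell at 24 h, with a log2 fold change of -1.07 ± 0.150 (adjusted p = 4.28e-06), and GLUD1P3, next to BMS1P4-AGAP5, rose by 1.43 ± 0.333 (adjusted p = 0.00108). ENSG00000272140, which overlaps BMS1P4-AGAP5 on its strand, had 1.76 ± 0.421 at 24 h (adjusted p = 0.00143), from 1, 5 and 10.75 expected counts to 16, 15.72 and 32.59. Its counts are split by estimation among the rows of that locus, whose sum had a log2 ratio of 0.94, so the value of this row alone is uncertain. SYCE3, 88 bases from KLHDC7B on the opposite strand, and CDC20B did not pass the filter.

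The genes whose log2 CPM followed each member most closely over the 21 libraries are given as a description. The points share 2 cell lines and include the tunicamycin and DMSO libraries by which the members were chosen. For KLHDC7B the closest genes were DNAJB9 (Pearson r = 0.977) and HYOU1 (0.976), both ER chaperones. KLHDC7B had at most 1 count in any library without tunicamycin, so a high r with genes raised by tunicamycin follows from its choice. CDH15 was followed by CCPG1 (0.977), an ER-phagy receptor, and IL17RC (0.950), and GEM by OTUD1 (0.955) and the histone gene H4C14 (0.952). SYTL1 was followed by STOX2 (0.970) and RPS6KA2 (0.958). The remaining members that differ strongly between lines had r above 0.98, CLGN with FNDC3A (0.990) and YIPF6 (0.987), GPX8 with NR1D2 (0.992) and OSBPL6 (0.988), P2RX7 with TNFRSF10B (0.994), a death receptor, and SASH1 (0.992), and APOL6 with CNST (0.996) and ELF1 (0.995). BMS1P4-AGAP5 had the loosest partners, CEP57 (0.848) and AZI2 (0.841).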

How the data were processed

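Poly(A) RNA of 21 libraries was sequenced, aligned with STAR and quantified with RSEM on GRCh38 by the authors, who deposited gene-level expected counts, not normalized (Ensembl release 101). Of these values, 3.54% to 4.22% per library were not whole. They were rounded for this work, except where a sum over the BMS1P4-AGAP5 locus is given. Genes with 1 CPM in 8 libraries (14012) were fitted with edgeR 4.0.16 (TMM, quasi-likelihood, a mean per group over all 21 libraries), with p-values Benjamini-Hochberg adjusted. A call needed an adjusted p within 0.05 together with more than 1 in absolute log2 fold change. Counting intervals are exact conditional Poisson (Clopper-Pearson, 95%) on pooled counts and, like the limit of 3 counts, cover counting error only. Reads carried no molecular identifiers. Positions and neighbours come from GENCODE 44, which matched 99.6% of rows, and promoters from RefSeq. The members and gene lists were chosen with earlier results of these data known. The named genes were the 9 members, the called and the most abundant relatives of each list, the 2 genes most correlated with each member, and overlapping or adjacent genes. Further relatives below the call limit or the filter were named after their values were seen. The most abundant gene of 1 list is not reported here. The pipeline was tested on simulated counts. Alternatives were limma voom 3.58.1, DESeq2 1.42.0, other scalings and filters, a replicate block, and leaving out each library. R 4.3.3 and SciPy 1.17.1 were used.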

Additional observations from a re-analysis of the deposited data

How the results depend on the processing

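The direction of the member ratios was fixed by how the genes were chosen and is no sign of stability, and 53 of 242 recomputed log2 ratios moved by more than the spread between tunicamycin libraries. Counts of called genes depended on the filter. With no filter beyond 1 count they were 1401 at 24 h and 514 in HEK293T, 40 between untreated and DMSO at 4 h and 917 between the DMSO times, and 8 relatives were called in HEK293T in place of 5, the added ones being CDH1, IFI44L and a BMS1P4 row. P2RX4 at 24 h was called without TMM (1.01). At 4 h, 1 or 2 relatives were called when 1 library was left out, 2 without DMSO replicate 1 or tunicamycin replicate 2. In HEK293T 4 or 5 were called, P2RX1 being lost under 4 of the 6 libraries left out. The class of genes switched on depended on its limits. With DMSO under 0.5 CPM it held 42, 54 and 21 genes (4 h, 24 h, HEK293T), with DMSO at 0 counts 5, 4 and 0 genes, of them 2, 2 and 0 members, with on at 0.5 CPM 62, 69 and 14 genes, and with on at 2 CPM 6, 3 and 2 genes, of them 1, 1 and 0 members. Between untreated and DMSO at 4 h, P2RX7 (-0.10 to 0.19 with 1 library left out) reversed without DMSO replicate 3 and APOL6 (-0.090 to 0.0042) without DMSO replicate 1. With a limit of 3 counts over the group the log2 bounds of KLHDC7B were 4.75 and 4.29, and that of GPX8 at 24 h was 2.89. The same values of BMS1P4-AGAP5, which are no bounds, were 4.90 and 4.32. Replicate numbers did not pair the libraries (correlations of -0.14 to 0.20), and with a replicate block the called genes numbered 690, 889, 296, 0 and 584 in place of 690, 885, 298, 0 and 581. Depth limits any gene under 3 counts, and the RSEM split limits BMS1P4-AGAP5.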
